A study of Homo sapiens with 20 samples.

Results

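The transcripts of the proteasome and its regulators were followed in human cells after knockdown of the ubiquitin ligase HUWE1. The genes were chosen by symbol: PSMA, PSMB, PSMC, PSMD, PSME, PSMF or PSMG followed by a number, plus POMP, ADRM1 and NFE2L1. This gave 51 of the 45372 gene symbols in the deposited tables, and all 51 were present in both tables. They comprise 8 alpha and 7 constitutive beta subunits of the core, 4 inducible or tissue-specific beta subunits, 6 ATPases and 4 non-ATPases of the base, and 8 lid subunits. The others are 3 assembly chaperones of the base, 5 assembly factors of the core, 4 activator subunits, the inhibitor PI31 (PSMF1) and the transcription factor NFE2L1.

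The proteasome degrades proteins that carry ubiquitin chains. Its core particle is a barrel of stacked alpha and beta rings whose proteolytic sites lie on PSMB5, PSMB6 and PSMB7, and which interferon can exchange for PSMB8, PSMB9 and PSMB10. A regulatory particle docks on the barrel: the ATPases of its base unfold the substrate, PSMD4 and ADRM1 bind ubiquitin, and the lid removes the chains through PSMD14. When proteasome activity is short, NFE2L1 is released from the endoplasmic reticulum, is processed and raises transcription of subunit genes through antioxidant response elements.

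HEK293T, an embryonic kidney line carrying the SV40 large T antigen, was treated with siRNAs against HUWE1 or with non-targeting siRNAs, and stranded mRNA libraries were sequenced. The labels describe 5 groups of 4 biological replicates, with the cell line and siRNA treatment common to all 20 libraries: non-targeting and HUWE1 siRNAs with no set number (set 1), HUWE1 siRNAs set 2, HUWE1 siRNAs set 3, and non-targeting siRNAs that sets 2 and 3 share. The labels do not say how the sets differ or how long after transfection cells were collected. A knockdown leaves part of the transcript, and only RNA was measured.

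Levels are in TPM, which corrects read numbers for gene length and sets all libraries to one total, with the 8 libraries of set 1 in the first table and the 12 others in the second. HUWE1 averaged 157 ± 3.57 TPM in the non-targeting libraries of set 1 and 85.0 ± 1.72 in its HUWE1 siRNA libraries (SD, n = 4). In the second table it averaged 163 ± 3.49 in the shared controls, 94.6 ± 2.26 in set 2 and 84.8 ± 5.42 in set 3. No HUWE1 siRNA library overlapped its controls (exact permutation test, two-sided, p = 0.0286 in each set, the smallest p that 4 against 4 allows). The listed HEK293T genes (NEFL, NEFM, PAX2, LHX1, VIM, KRT8 and KRT18) summed to 756 to 1234 TPM per library. Fibroblast markers summed to at most 31.4, leukocyte markers to 8.19 and endothelial markers to 3.27. Such sums alone do not identify a cell line. Between libraries of a group, log2 values over all genes correlated at 0.9919 or more, except among the shared controls of sets 2 and 3, where the lowest r was 0.9797.

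Proteasome transcripts were abundant in control cells. The highest of the core was PSMB4, a structural beta subunit, at 341 TPM in set 1 and 301 in the shared controls, and the lowest tested was PSMA5, an alpha subunit, at 36.7 and 56.2. Subunits that are equimolar in the particle thus differed 9.31-fold and 5.35-fold per transcript length. The alpha subunits had a median of 56.9 and 91.1 TPM and the constitutive beta subunits of 183 and 256. Of the ATPases PSMC3 was highest (207 and 206 TPM) and PSMC6 lowest (42.4 and 51.6), and of the base non-ATPases PSMD4 was highest (214 and 205 TPM) and PSMD1 lowest (56.3 and 69.1). In the lid PSMD8 was highest (125 and 149.9 TPM), and the lowest was the deubiquitinase PSMD14 in set 1 (21.1 TPM) and PSMD6 in the shared controls (25.3 TPM).

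The inducible subunits were low. PSMB10 averaged 33.0 and 29.6 TPM, PSMB9 3.29 and 2.39, and PSMB8 1.05 and 0.623. PSMB11, known from the thymus, reached at most 0.383 TPM in a library and PSMA8, known from the testis, at most 0.106. PSMD5, a chaperone of the base, reached at most 0.245 TPM, while its partner chaperones PSMD9 and PSMD10 averaged 21.5 and 95.7 TPM in the controls of set 1. The filter for testing, which asked that 4 libraries or more of a table reach 1 TPM, removed PSMA8, PSMB8, PSMB11 and PSMD5 and left 47 of 51 genes in each table.

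**Figure D1:**
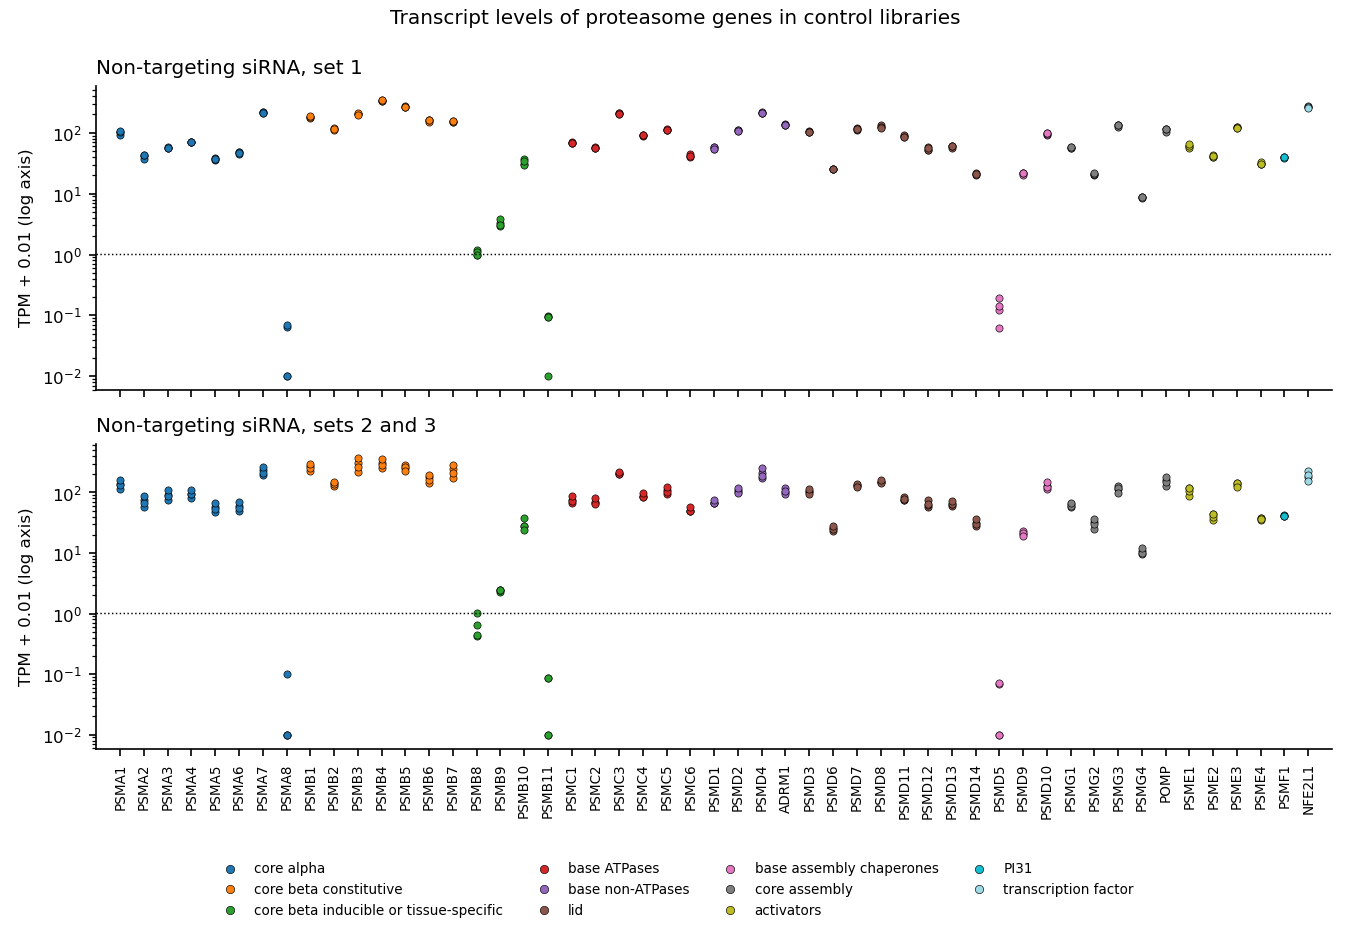
TPM (plus 0.01, log axis) of each of the 51 genes in the 4 non-targeting libraries of set 1 (top) and the 4 shared by sets 2 and 3 (bottom), 1 point per library, coloured by role. By mean in set 1, the core, base and lid subunits above the dotted line at 1 TPM run from 21.1 (PSMD14) to 341 TPM (PSMB4), and PSMA8, PSMB8, PSMB11 and PSMD5 lie around or below that line.

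The genes lie on 18 chromosomes. PSME1 (chromosome 14, 24136158 to 24138967, hg38, plus strand) and PSME2 (24143362 to 24147570, minus strand), whose products assemble into the activator PA28, are neighbours, as are PSMB8 and PSMB9 in the major histocompatibility region of chromosome 6. Exons of PSMC1 (chromosome 14, 90256495 to 90275429) overlap 4671 bases of NRDE2 exons on the opposite strand, and those of PSMA2 overlap AC010132.3 on the same strand, which was listed at 36.9 and 24.5 TPM on average in the 2 tables. For 10 members the annotation names 30 pseudogenes, 13 of them of PSMC1, and none is in the tables. The sources do not say how the authors' counting divided such reads, so values of these genes are uncertain to that extent.

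Promoter windows (250 bases before to 50 after the start, RefSeq, GRCh38.p14) were found for 45 of the 51 genes. Windows were missing for PSMA7, for PSMG3, called lower in set 1, and for PSMB1, PSMB6, PSMB7 and PSMD4, called higher there. The antioxidant response element core TGACNNNGC, the site of NFE2L1 with small MAF proteins, was present on either strand in 14 of 45 (31.1%), against 13.6% of all 27305 windows of the table. The ETS core CCGGAAG was present in 14 (31.1%, against 10.7%), 6 of them among the 8 lid genes, and the CCAAT box CCAAT in 21 (46.7%, against 35.7%). GCGCATGCG, a site of nuclear respiratory factor 1, was in 1 (2.22%, against 2.1%) and the CRE TGACGTCA, which shares its first letters with the antioxidant core, in 0 (against 1.98%). The members' windows were richer in GC (median 62.3%, against 58.3%), and matched windows were not compared. Upstream matches of the antioxidant core also lay in PSMG1, called lower in set 1, and in the untested PSMD5. Further ones lay in ADRM1, PSMB9, PSMD3, PSMD9, PSMD12, PSME4 and PSMG2, not called in set 1. Whether the motif goes with the direction of change was not tested. The upstream matches of 3 genes called higher in set 1 are shown with 20 bases on each side and the antioxidant core in capitals.

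PSME1 (chr14:24136088-24136136, plus strand): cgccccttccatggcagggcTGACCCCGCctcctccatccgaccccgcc
PSME2 (chr14:24146757-24146805, minus strand): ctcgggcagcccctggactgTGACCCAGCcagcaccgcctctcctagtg
PSMB3 (chr17:38752617-38752665, plus strand): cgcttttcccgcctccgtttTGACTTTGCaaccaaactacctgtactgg

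Upstream matches of the ETS core also lay in PSMC2, PSMC6, PSMD8, PSMD9, PSMD12, PSMD13, PSME4 and PSMG4, not called in set 3, and in the untested PSMA8. None lay upstream in PSMA4, PSMC1 and PSMC4, called higher in set 3. For 2 genes called higher in set 3 the ETS core is in capitals, on the gene's strand in PSMD6 and as its reverse complement in POMP.

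PSMD6 (chr3:64023505-64023551, minus strand): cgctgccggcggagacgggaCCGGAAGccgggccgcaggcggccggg
POMP (chr13:28659066-28659112, plus strand): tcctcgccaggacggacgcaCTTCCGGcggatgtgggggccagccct

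In set 1, members moved in both directions, and their share of calls was near that of all genes. 5 of 7 constitutive beta subunits and both subunits of PA28 rose, whereas 3 of 6 ATPases, 2 of 5 core assembly factors, the lid subunit PSMD11 and NFE2L1 fell. Which ATPases and lid subunits were called depended on the scaling. After median-of-ratios scaling or quantile normalization the ATPases PSMC4 and PSMC5 were called higher and only PSMC3 lower. In these fits the lid subunit PSMD6 was called higher and PSMD11 not. Without mitochondrially encoded genes PSMC3 was the only ATPase called, lower, and in the lid PSMD6 was called higher and PSMD11 lower. No test compared the roles. In all, 15 of 47 tested members were called with limma at an adjusted p under 0.05, 8 higher and 7 lower, which is 31.9% beside 30.3% of all 16057 genes tested (12.3% higher, 17.9% lower). Without adjustment 13 were higher and 9 lower at p under 0.05 (22 in all, beside 41.9%, with 17.7% of all genes higher and 24.2% lower), and the groups did not overlap for 9 higher and 8 lower members (13.3% and 18.4% of all genes). The median log2 fold change, here and below on the log2(TPM + 1) scale, was 0.0034 over the members and -0.012 over all genes. Beside these changes, the listed HEK293T genes summed to 879 to 932 TPM in the controls and 756 to 797 after HUWE1 siRNA (4 of 7 called lower), and 7 fibroblast genes to 24.8 to 26.8 and 29.4 to 31.4 TPM (3 of 4 tested called higher), and their part in the results was not tested. As in any bulk sample, a change in RNA per cell and a change in the make-up of the cells cannot be told apart.

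The 2 PA28 genes had the largest increases among the members of set 1. PSME1, the alpha subunit of this ring that opens the core without ATP, was at 61.5, 56.9, 60.7 and 64.6 TPM in the 4 controls and at 75.8, 79.3, 83.1 and 82.8 TPM after HUWE1 siRNA. The groups did not overlap, and the log2 fold change was 0.39 ± 0.042 (SE, limma, adjusted p = 2.4e-04). PSME2, the beta subunit, was at 43.1, 40.1, 40.1 and 41.5 TPM in the controls and at 49.2, 50.4, 47.3 and 47.2 TPM in the HUWE1 siRNA libraries. It was also higher in each of these 4 libraries than in any control (0.23 ± 0.034, SE, limma, adjusted p = 0.0010). Of the other activators, the nuclear PSME3 had a log2 fold change of -0.044 (adjusted p = 0.16) and PSME4, the large activator of histone degradation, had a log2 fold change of 0.10 (adjusted p = 0.061). PSME4 was called higher under each of the 3 other scalings (limma, adjusted p = 0.027 to 0.048) and without control replicate 3 (0.038) or HUWE1 siRNA replicate 2 (0.032).

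Among the core subunits of set 1, PSMB6, the caspase-like site, showed the largest increase. It was at 163, 151, 162 and 164 TPM in the controls and at 172, 176, 178 and 180.3 TPM after HUWE1 siRNA, without overlap (0.14 ± 0.031, SE, limma, adjusted p = 0.0073). PSMB7, the trypsin-like site, rose from 155 to 165 TPM (0.093 ± 0.026, adjusted p = 0.023) and PSMB1 from 183 to 198 TPM (0.11 ± 0.030, adjusted p = 0.018). PSMB4 rose by 0.084 on the log2 scale (adjusted p = 0.017), and PSMB3, named after its values were seen, was the remaining call. PSMB5, the chymotrypsin-like site, and PSMB2 were not called (0.033 and -0.022). The 5 beta subunits were called higher under each of 3 other scalings as well, but single libraries ended some calls. PSMB1 lost its call without control replicate 3 or HUWE1 siRNA replicate 3 or 4 (limma, adjusted p = 0.051 to 0.055), and PSMB4 without HUWE1 siRNA replicate 4 (0.051). PSMB7 lost it without control replicate 1 or 2 or HUWE1 siRNA replicate 3 or 4 (adjusted p = 0.056 to 0.072).

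No alpha subunit was called in set 1, and their log2 fold changes ran from -0.064 to 0.10. Summed over the 15 core genes (alpha and constitutive beta), the level was 1996, 1954, 2013 and 2016 TPM in the controls and 2053, 2075, 2086 and 2112 TPM after HUWE1 siRNA, so every HUWE1 siRNA library lay above every control. The inducible subunits were lower by mean, without a call: PSMB10 had a log2 fold change of -0.11 (adjusted p = 0.21) and PSMB9 of -0.16 (adjusted p = 0.23). PSMB8, under the filter and so untested, was at 0.967, 1.196, 1.09 and 0.969 TPM in the controls and at 0.704, 0.747, 0.640 and 0.737 TPM after HUWE1 siRNA, and these groups did not overlap.

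In the regulatory particle of set 1, the ATPase PSMC3 fell most. Its levels were 212, 207, 208 and 203 TPM in the controls and 186, 179, 180.3 and 179.9 TPM after HUWE1 siRNA, with no overlap (-0.19 ± 0.023, SE, limma, adjusted p = 3.8e-04). PSMC1 (-0.090, adjusted p = 0.040) and PSMC2, named after its values were seen, were also called lower, and both calls were lost under each of 3 other scalings. PSMC1 lost the call in 13 of 17 alternatives, among them each single library left out except HUWE1 siRNA replicate 1 (highest adjusted p of these 0.11). The ubiquitin receptor PSMD4 rose from 214 to 229 TPM (0.093, adjusted p = 0.026), a call that ended in the fits without control replicate 1, 3 or 4 or HUWE1 siRNA replicate 2, 3 or 4 (adjusted p up to 0.068). The ubiquitin receptor ADRM1 stayed within its spread (136 in both groups, log2 fold change 0.0021, 95% interval -0.071 to 0.075). PSMC4, not called here (0.053, adjusted p = 0.095), was called higher after median-of-ratios scaling (0.033) and quantile normalization (0.023). In the lid PSMD11 fell from 87.4 to 81.2 TPM (-0.11, adjusted p = 0.020), which was lost under median-of-ratios scaling (adjusted p = 0.056), under quantile normalization (0.066) and without HUWE1 siRNA replicate 3 (0.050) or 4 (0.059). The lid subunit PSMD6 (0.073, adjusted p = 0.060) was called higher under each of the 3 other scalings (0.025 to 0.048).

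Of the assembly factors of the core in set 1, PSMG1, which with PSMG2 builds the alpha ring, had the largest decrease of the 47 tested members. It was at 59.3, 55.4, 57.2 and 57.9 TPM in the controls and at 46.9, 48.5, 49.0 and 47.6 TPM after HUWE1 siRNA (-0.25 ± 0.028, SE, limma, adjusted p = 2.9e-04). The highest HUWE1 siRNA library lay below the lowest control. PSMG3, a further alpha-ring chaperone, was at 133, 122, 134 and 133 TPM and then at 116, 119.9, 118 and 114 TPM (-0.16 ± 0.033, adjusted p = 0.0062), again without overlap. POMP, which guides beta-ring assembly, was not called (0.064, adjusted p = 0.24), nor were PSMG2 and PSMG4. PSMG1, PSMG3, PSME1, PSME2, PSMB6 and PSMC3 were called in each of the 17 alternatives.

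NFE2L1 of set 1 was at 270.1, 269, 266 and 258 TPM in the controls and at 253, 252, 242 and 237 TPM after HUWE1 siRNA. All 4 HUWE1 siRNA libraries lay below all controls, and the gene was called lower (-0.11 ± 0.027, SE, limma, adjusted p = 0.012), except after quantile normalization (-0.069, adjusted p = 0.10). The split of the 15 calls in set 1 moved with the scaling: it was 12 higher and 4 lower after median-of-ratios scaling, 12 and 3 after quantile normalization and 10 and 5 without mitochondrially encoded genes. Among all called genes, 40.8% were higher, and 50.5%, 50.8% and 46.0% in these 3 fits. Without HUWE1 siRNA replicate 4 the count of members fell to 7 (22.8% of all genes called), without replicate 3 to 9 (23.7%) and without control replicate 1 to 10 (26.4%).

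**Figure D2:**
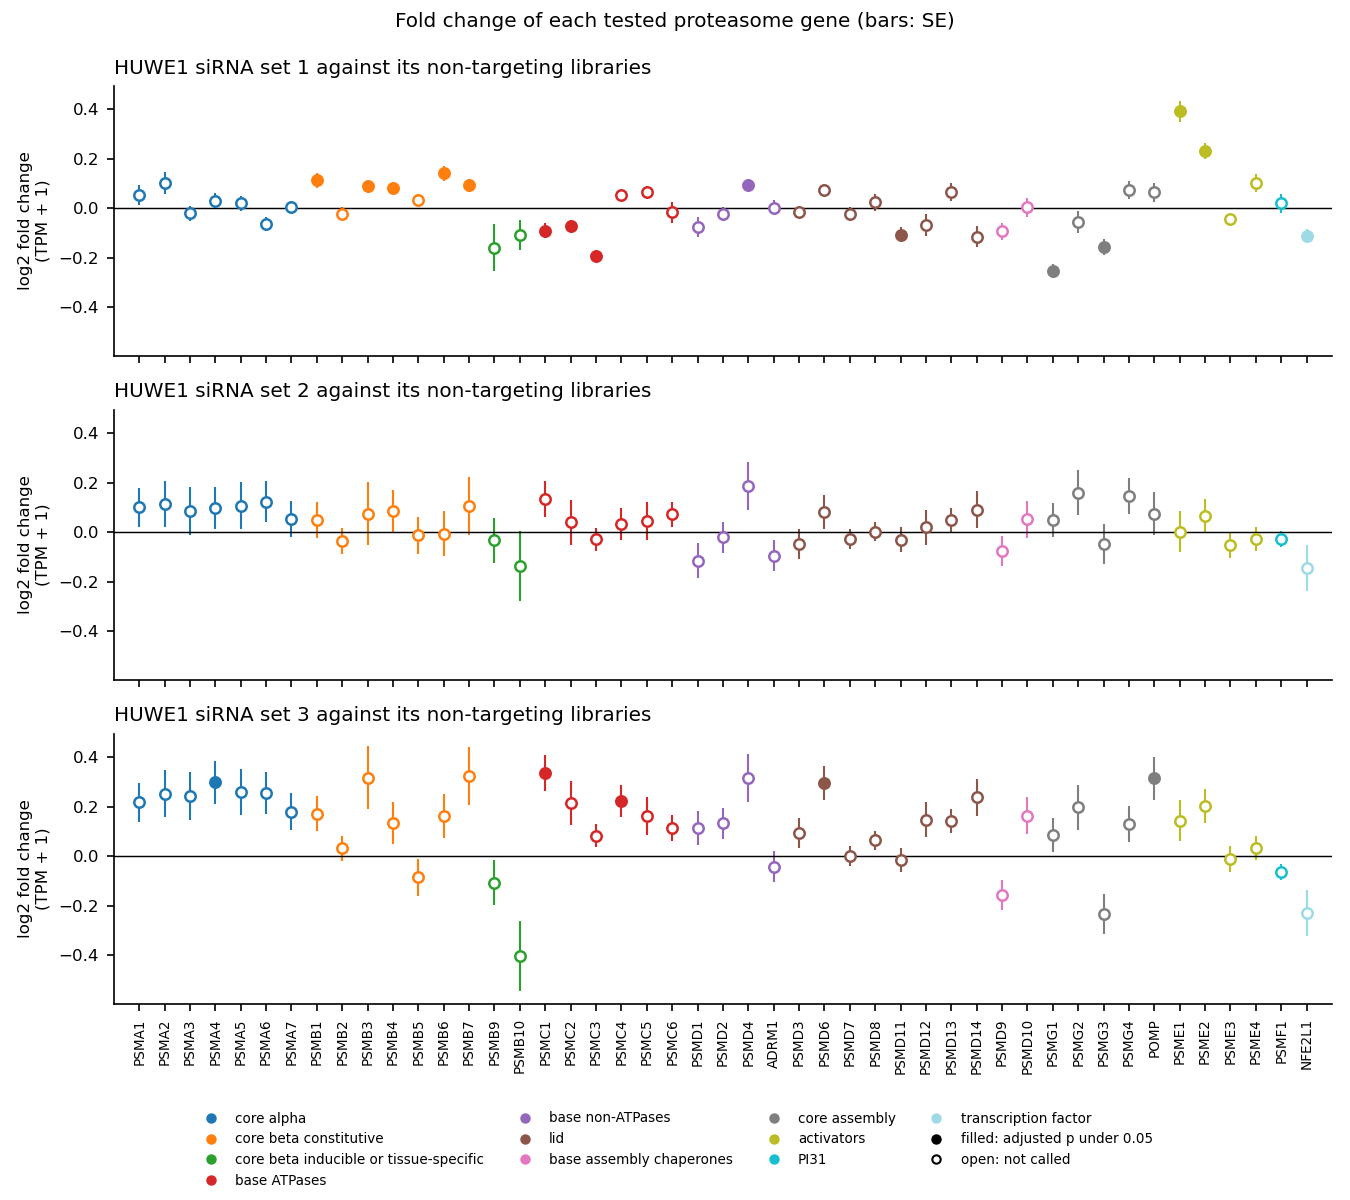
Log2 fold change of TPM + 1 with its SE for the 47 tested genes in sets 1, 2 and 3, each against its non-targeting libraries, coloured by role and filled where the adjusted p was under 0.05. Set 1 has 15 filled points on both sides of 0, set 2 has 0, and set 3 has 5 filled points, all above 0. Sets 2 and 3 use the same 4 controls.

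Before the results of sets 2 and 3, the shared controls need describing, because they differed among themselves in proteasome transcripts. The 15 core genes summed to 2057, 2458, 2276 and 2743 TPM in non-targeting replicates 1 to 4, a wider range than the 2346 to 2596 TPM of set 2 or the 2610 to 2775 TPM of set 3. Replicate 4 was the highest control for 34 of the 47 tested members (33.0% of all genes), and replicate 1 was the lowest for 29 (30.5% of all genes). Replicate 1 also held the most histone transcript, at 458 TPM summed over 71 genes against 183 to 252 in the other controls and 157 to 172 in set 3. Mitochondrially encoded transcripts took 18.3%, 18.1%, 17.8% and 16.6% of TPM in the 4 controls and 15.5% to 16.4% in set 3. The part of these differences in the results of sets 2 and 3 was not tested beyond leaving libraries out. Single libraries of other groups stood apart too. Replicate 1 of set 2 was the highest of its group for 31 of 47 members (32.6% of all genes). Replicate 4 of set 3 was highest for 24 (25.2%), and control replicate 2 of set 1 was lowest for 24 (27.6%).

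**Figure D3:**
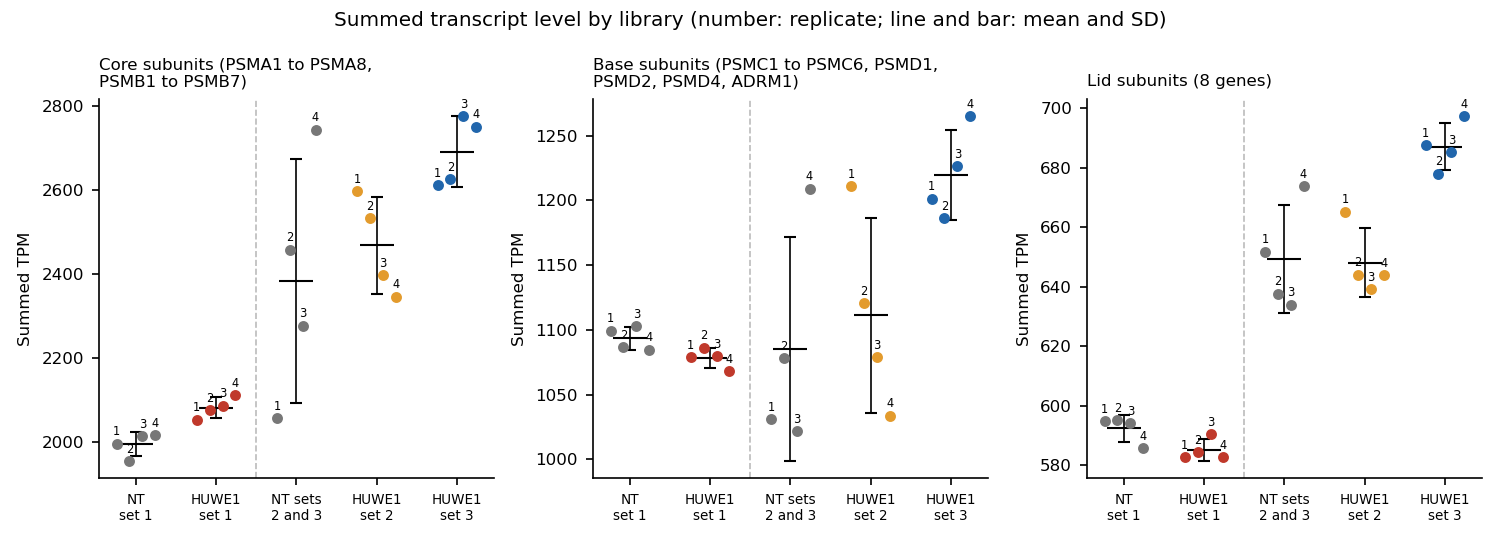
Summed TPM of the 15 core, 10 base and 8 lid genes in each of the 20 libraries (points, numbered by replicate), with the mean and SD of each group. The dashed line separates the tables, which were normalized separately, and the axes do not start at 0. The shared controls spread from 2057 to 2743 TPM for the core, and all 4 libraries of set 3 lie above controls 1, 2 and 3 in each panel. Control 4 lies within set 3 for the core and the base.

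In set 2, no proteasome gene was called. The count was 0 of 47 with limma, beside 0.0126% of all 15860 genes tested, and 0 of 47 had an unadjusted p under 0.05, beside 8.83% of all genes (5.05% higher, 3.78% lower). The smallest unadjusted p belonged to PSMG4, PSMD4 and PSMC1. PSMG4, a small assembly factor, was at 9.498, 10.8, 10.2 and 11.97 TPM in the controls and at 12.1, 12.8, 11.6 and 10.8 TPM in set 2, so the groups overlapped (0.15, limma, adjusted p = 0.57, 95% interval -0.016 to 0.31). PSMD4 had a log2 fold change of 0.18 (95% interval -0.033 to 0.40) and PSMC1 of 0.13 (95% interval -0.034 to 0.30).

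By group, all 7 tested alpha subunits had a positive log2 fold change in set 2 (0.053 to 0.12), as had 29 of the 47 members, against 48.3% of all genes. The members' median was 0.045 beside -0.0041 over all genes, 0.098 without non-targeting replicate 4 and -0.0019 without replicate 1. No member separated set 2 from the controls, beside 1.99% of all genes higher and 1.71% lower without overlap.

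In set 3, 5 members rose and 0 fell: the ATPases PSMC1 and PSMC4, the lid subunit PSMD6, the alpha subunit PSMA4 and the assembly factor POMP. This is 10.6% of the 47 tested members, near the share of all 15860 genes tested, 11.6% (7.45% higher, 4.15% lower). Calls were made with limma at an adjusted p under 0.05. The median log2 fold change over the members was 0.14, against 0.0074 over all genes, and 37 of 47 were positive, against 51.5% of all genes. At an unadjusted p under 0.05, 21 members were higher and 4 lower (19.9% and 14.6% of all genes).

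PSMC1 was at 66.3, 74.6, 72.3 and 87.0 TPM in the controls and at 90.7, 91.2, 97.5 and 99.05 TPM in set 3. No library of set 3 fell within the controls, and the log2 fold change was 0.34 ± 0.074 (SE, limma, adjusted p = 0.021). PSMC4 (chromosome 19, 39971005 to 39981441), another ATPase of the ring, was at 82.9, 87.4, 83.1 and 97.7 TPM and then at 100.8, 101, 103 and 104 TPM (0.22 ± 0.065, adjusted p = 0.046). It too did not overlap the controls, of which replicate 4 came closest. The other 4 ATPases had log2 fold changes of 0.082 to 0.21 without a call.

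PSMD6 (chromosome 3, 64010549 to 64024010), a scaffold subunit of the lid, was at 23.0, 25.4, 24.8 and 27.8 TPM in the controls and at 29.7, 28.8, 33.4 and 32.9 TPM in set 3. Its groups did not overlap (0.30 ± 0.068, SE, limma, adjusted p = 0.024). PSMD14, the lid's deubiquitinase, had a log2 fold change of 0.24 (adjusted p = 0.055). Over the 8 lid genes the sum was 652, 638, 634 and 674 TPM in the controls and 688, 678, 685 and 697 TPM in set 3, so these sums did not overlap.

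Among the core genes of set 3, PSMA4 (chromosome 15, 78540405 to 78552419) was at 81.9, 94.5, 93.5 and 112 TPM in the controls and at 110.0, 107, 126 and 126 TPM after HUWE1 siRNA. It was called (0.30 ± 0.086, SE, limma, adjusted p = 0.045), although 2 libraries of set 3 were below control replicate 4. All 7 tested alpha subunits had a positive log2 fold change, from 0.18 to 0.30, and each had an unadjusted p under 0.05. The constitutive beta subunits were less uniform: PSMB7 had a log2 fold change of 0.32 (adjusted p = 0.078) and PSMB6 of 0.16 (adjusted p = 0.21), whereas PSMB5 had one of -0.086 (adjusted p = 0.43). PSMB5 was at 287, 251, 264 and 223 TPM in the controls and at 248, 254, 234 and 228 TPM in set 3. Its lowest control was replicate 4, the one with the highest core sum.

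POMP (chromosome 13, 28659104 to 28678925) was at 127, 159, 149 and 180.4 TPM in the controls and at 183, 174, 205 and 199 TPM in set 3 (0.31 ± 0.088, SE, limma, adjusted p = 0.042). Only replicate 2 of set 3 lay below the highest control. PSMG3, by contrast, was at 128, 114, 119 and 97.8 TPM in the controls and at 101, 106, 94.4 and 87.3 TPM in set 3 (-0.23, adjusted p = 0.071). The groups overlapped, and PSMG3 was not called.

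PSMB10, the inducible counterpart of PSMB7, had the lowest log2 fold change of the members in set 3 (-0.40 ± 0.14, SE, limma, adjusted p = 0.073). It was at 37.7, 28.5, 28.1 and 24.05 TPM in the controls and at 22.7, 23.1, 24.8 and 17.5 TPM in set 3, so 1 library of set 3 lay above the lowest control. NFE2L1 was at 223, 181, 195 and 154 TPM in the controls and at 162, 168, 149 and 157 TPM in set 3 (-0.23 ± 0.094, adjusted p = 0.11). The spread of its controls covered all 4 libraries of set 3 but 1, replicate 3.

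**Figure D4:**
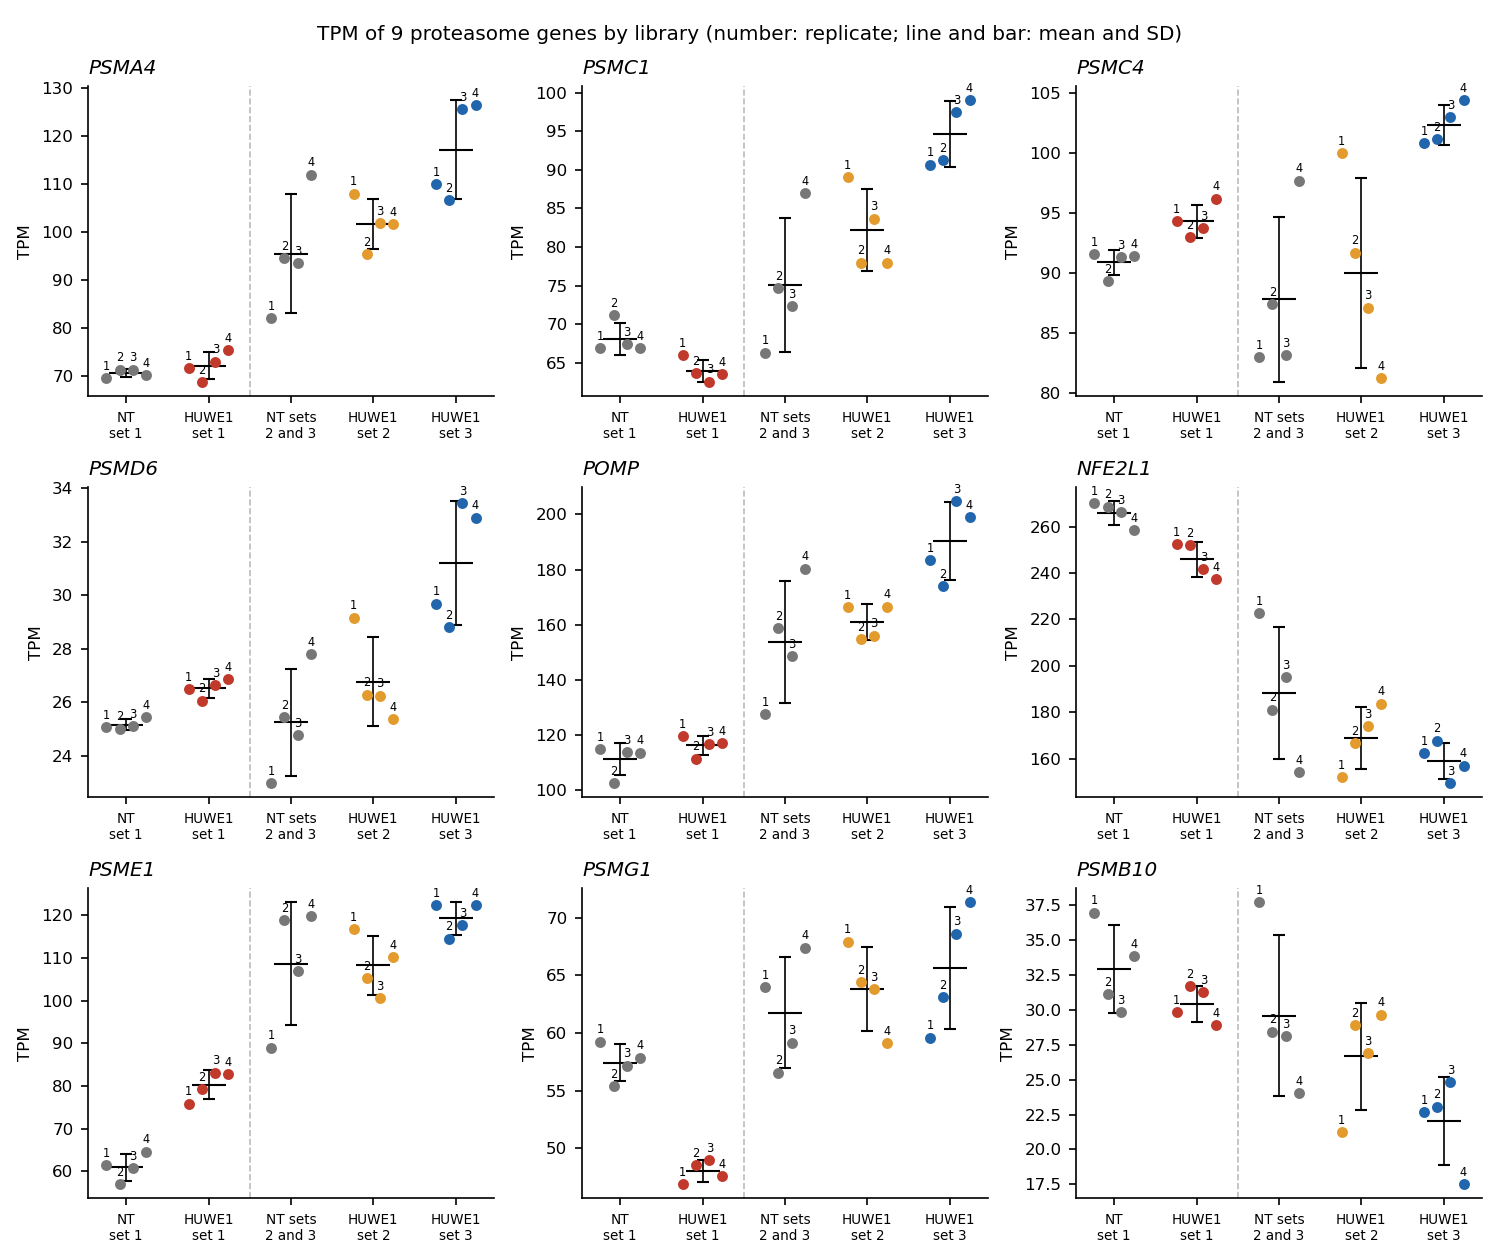
TPM of 9 genes in the 20 libraries (points, numbered by replicate), with the mean and SD of each group, the dashed line separating the tables. The axes do not start at 0. PSMC1, PSMC4 and PSMD6 of set 3 lie above every control, PSMA4 and POMP overlap control replicate 4, and NFE2L1 and PSMB10 run the other way, with control replicate 1 highest.

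Which members were called in set 3 depended on single libraries. Without non-targeting replicate 4, 31 members were called, 27 higher and 4 lower (NFE2L1, PSMB10, PSMD9 and PSMG3), beside 37.2% of all genes. That replicate was the highest control for 34 of 47 members (33.0% of all genes). Leaving it out favours the members, so counts without it are a description and no fair comparison. The 27 included all 7 alpha subunits, 5 constitutive beta subunits, 5 ATPases and 3 lid subunits. Without non-targeting replicate 1 the count was 1 (4.72% of all genes called), without replicates 1 and 4 it was 21 (19 higher, 2 lower, beside 20.6% of all genes), and without replicate 2 or 3 it was 0 (2.50% and 1.63%). Without HUWE1 siRNA replicates 1, 2, 3 and 4 of set 3 it was 2, 4, 0 and 0 (3.38%, 8.07%, 1.03% and 1.06% of all genes called), so calls fell over all genes as well. In the fit of set 3 and its controls alone, 0 members were called, beside 2.31% of all genes. The members' median stayed between 0.10 and 0.19 in these 8 fits with 1 library left out.

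Each of the 5 calls was lost in part of these fits. PSMC1 was lost without control replicate 2 (adjusted p = 0.056) or 3 (0.069) and without replicate 3 (0.071) or 4 (0.072) of set 3. PSMD6 was lost without the same 4 libraries (highest adjusted p = 0.080) and without control replicate 1 (0.051). POMP and PSMA4 kept the call only without control replicate 4 (adjusted p = 0.0041 and 0.0043) or replicate 2 of set 3 (0.045 and 0.045), and PSMC4 only without control replicate 4 (0.0062). Under the 3 other scalings 2, 4 and 2 members were called, all of them higher and PSMC1 and PSMD6 in each, while the higher share of all called genes went from 64.2% to 48.9%, 52.4% and 44.3%.

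Counted by library, all 4 libraries of set 3 lay above all 4 controls for 3 members, PSMC1, PSMC4 and PSMD6 (higher without overlap: 11.2% of all genes). They lay below all controls for 1, the inhibitor PSMF1 (6.03% of all genes), which was not called (-0.064). They lay above control replicates 1, 2 and 3 for 29 of 47 members, beside 23.0% of all genes. Replicate 4, left out of this count, was the highest control for 34 of 47 members (33.0% of all genes). Leaving it out favours the members, so these shares are a description and no fair comparison. These 29 included all 7 alpha subunits and all 6 ATPases.

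**Figure D5:**
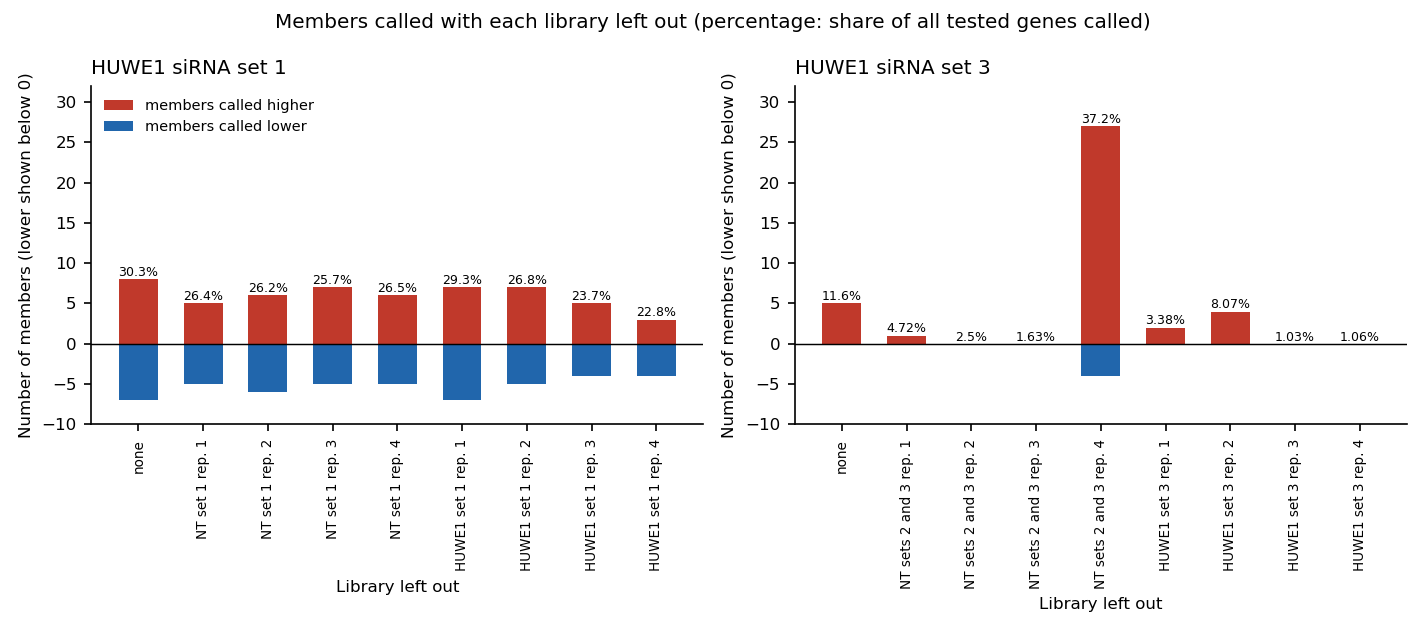
Number of members called higher (up) and lower (down, below 0) in set 1 and set 3 with all libraries and with each library left out in turn, and above each bar the percentage of all tested genes that were called. In set 1 the total ran from 7 to 15, and in set 3 it ran from 0 to 5 except for 31 without non-targeting replicate 4.

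Set 3 was also compared with set 2 directly. In a fit of these 2 groups alone 0 members were called, beside 2.15% of all genes. The values that follow are from the model of all 12 libraries, where the controls add to the estimate of the spread. There 0 members were called with limma, beside 0.517% of the 15860 genes, and 10 had an unadjusted p under 0.05 (9 higher, 1 lower), beside 15.8% (10.1% higher, 5.66% lower). The smallest p belonged to PSMD1, the scaffold of the base, which was at 70.6, 61.4, 59.6 and 63.8 TPM in set 2 and at 73.1, 66.3, 80.0 and 80.6 TPM in set 3 (0.23, limma, adjusted p = 0.16, 95% interval 0.071 to 0.38). PSMD6 (0.21, adjusted p = 0.17) and PSMC4 (0.19, adjusted p = 0.20) followed. The median over the members was 0.12 beside 0.0092 over all genes, 39 of 47 were positive (53.0% of all genes), and 8 members were higher in all 4 libraries of set 3 than in any of set 2 (8.13% of all genes), with 0 lower (5.05%). Among these 8 were PSMC1, PSMC4 and POMP, whereas PSMD1 of set 3 overlapped set 2 in replicate 1 of that set.

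PSMC1 was called lower in set 1 (68.1 to 63.9 TPM) and higher in set 3 (75.1 to 94.6 TPM). The call was lost in 13 of 17 alternatives in set 1, among them the 3 other scalings, and in 5 of 19 in set 3. The 2 tables were normalized separately, so the difference between these effects was not tested. The same holds for PSME1, which rose in set 1 and had log2 fold changes of 0.0027 (95% interval -0.18 to 0.19) and 0.14 (-0.044 to 0.33) in sets 2 and 3, and for PSMG1, which fell in set 1 and had 0.048 (-0.11 to 0.20) and 0.087 (-0.069 to 0.24).

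NFE2L1 had a negative log2 fold change in each set, with a call in set 1 alone (-0.11 in set 1, -0.15 in set 2, -0.23 in set 3), and sets 2 and 3 share their controls. Within groups of the second table, its order ran against that of the core genes. In the shared controls it was highest in replicate 1 and lowest in replicate 4, where the core sum was lowest and highest. Of all genes, 42.7% were highest in that replicate 1 and 39.6% lowest in that replicate 4, as were PSMB5, PSMB10 and PSMG3. In set 2 it was at 152, 167, 174 and 184 TPM in replicates 1 to 4, while the core sum was 2596, 2532, 2397 and 2346 TPM. There 27.7% of all genes were lowest in replicate 1 and 36.5% highest in replicate 4. A relation of NFE2L1 to the core genes was not tested. Set 3 did not follow this order exactly, since the highest NFE2L1 (replicate 2) and the lowest core sum (replicate 1) were in different libraries.

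Genes around the proteasome were counted from lists chosen for this purpose. Of 17 partners that are no subunits by symbol (such as deubiquitinases, import and assembly factors), set 1 had 1 higher and 4 lower (12.3% and 17.9% of all genes), among them UBE3C, the ligase bound to the particle (0.12, limma, adjusted p = 0.0038), and IPO9, a nuclear import receptor (-0.13, 0.0060). Sets 2 and 3 had 0 called. Of 13 genes that process, degrade or partner NFE2L1, set 1 had FBXW7 (0.11, adjusted p = 0.020) and VCP (0.080, 0.035) higher and 0 lower. In set 3 NFE2L2, the related stress factor, was higher (0.22, adjusted p = 0.035), and DDI2, the protease that cleaves NFE2L1, was lower (41.8 against 49.5 TPM, -0.23, adjusted p = 0.045), with 0 called in set 2.

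Since PSME1, PSME2 and the inducible subunits respond to interferon, interferon and antigen-processing genes were counted beside them. Of 17 tested in set 1, 6 were higher and 2 lower (12.3% and 17.9% of all genes), the smallest p belonging to HLA-C (261 to 322 TPM, 0.30, limma, adjusted p = 3.4e-04), the interferon signalling factor STAT2 (46.6 to 56.2 TPM, 0.26, adjusted p = 6.9e-04) and HLA-E (96.0 to 110 TPM, 0.19, adjusted p = 0.0020). The 2 called lower, named after their values were seen, were the interferon-induced IFIT3 (6.53 to 5.35 TPM, -0.24, adjusted p = 0.021) and IRF1 (4.50 to 3.88 TPM, -0.17, adjusted p = 0.048). PSMB8, PSMB9 and PSMB10 also had lower means in set 1. Of 16 tested in set 3, STAT2 was higher (0.20, adjusted p = 0.036) and 0 were lower, and in set 2 0 were called.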

How the data were processed

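TPM values in 2 tables were deposited by the authors, with every library scaled to the same total, so no depth or counting interval could be given. Libraries were made with a TruSeq stranded mRNA kit and run on a NovaSeq 6000, per the labels' protocols, while the submitters' processing notes name hg38. No aligner, counter or gene annotation is named in the sources used here. All per-sample columns were used.

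Each table was fitted apart on log2(TPM + 1) with limma 3.58.1 (R 4.3.3), moderated variance with a mean trend, on genes that reached 1 TPM in 4 or more libraries, two-sided, with Benjamini-Hochberg adjustment over all genes tested and calls at an adjusted p under 0.05. The 12 libraries of the second table shared 1 model. The 95% intervals used limma's SE with the residual degrees of freedom alone. An interval can therefore include 0 where the unadjusted p of limma is under 0.05. HUWE1 was tested by an exact permutation test. The labels call the replicates biological, and limma's p-values set a difference between groups against the spread between replicates. In the second table that spread was taken from all 12 libraries. The labels do not say whether replicate numbers pair samples, and the main fits did not pair them. Same-numbered deviations correlated at 0.00022 to 0.052 in set 1, -0.48 to 0.039 in set 2 and -0.027 to 0.41 in set 3, which does not settle it.

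The members, lists and tests were chosen with earlier results of these data known, so no test was made over the list. Named genes are HUWE1, the regulators, the catalytic and inducible beta subunits, up to 6 called members with the largest change per direction and comparison (or the 3 with the smallest p where fewer than 2 were called), the highest and lowest of each role in controls, members under the filter, and up to 3 called genes per neighbouring list. A called gene of a neighbouring list is not reported here. Gene positions are from GENCODE release 29 (hg38) and promoters from RefSeq. Alternatives covered the pseudocount (0.1), filters (none, or a mean TPM of 5), 3 scalings, 2 variance models, a replicate block and each library left out. The fit was tested on simulated data.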

Additional observations from a re-analysis of the deposited data

Results flagged for a closer look

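Within groups of 4, 1 library can lie far from the other 3, beyond Dixon's 95% critical value for the gap over the range. Of 182 gene and group combinations checked, 12 did, and chance alone flags about 1 in 20. Of these, 6 involve non-targeting replicate 2 of set 1: it was low for POMP (102.6 TPM, the others 113.7 to 114.8), PSMB6 (150.9, the others 162.5 to 163.8), PSMG3 (122.2, the others 133.1 to 134.4) and PSMC4 (89.27, the others 91.3 to 91.51), high for PSMC1 (71.15, the others 66.92 to 67.41), and at 0 for PSMB11 (the others 0.08515 to 0.08749). Without this control PSMB6 and PSMG3 were still called in set 1 (limma, adjusted p = 0.0098 and 0.0013), and PSMC1 was not (0.090).

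In the second table, control replicate 4 was high for PSMC6 (56.9 TPM, the others 49.6 to 50.13). In set 2, replicate 1 was high for ADRM1 (105 TPM, the others 96.26 to 97.12) and replicate 2 for PSMD8 (155.3, the others 147.8 to 148.8). The remaining cases concern genes near 0: PSMA8 was at 0.08996 TPM in control replicate 2 of sets 2 and 3, and PSMB11 at 0.08462 in HUWE1 siRNA replicate 4 of set 1 and at 0.3834 in replicate 2 of set 2, with all others of their groups at 0.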

How the results depend on the processing

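The replicate block, with the labels' replicate numbers as a term, gave 13 members called in set 1 (28.6% of all genes), 0 in set 2 (0.00631%), 1 in set 3 (4.37%) and 0 in set 3 against set 2 (0.107%). Whether these numbers pair samples is not in the labels.

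In set 1 the count of calls was 9 without the variance trend (28.4% of all genes) and ran from 7 to 14 with single libraries left out. The members' median (-0.0036 to 0.013 with libraries left out) was 0.023 after median-of-ratios scaling and 0.030 after quantile normalization. In set 3 the count was 2 with no filter (2.40% of all genes), 2 after median-of-ratios scaling (11.9%), 2 without mitochondrially encoded genes (9.79%), 2 without the variance trend (9.39%), 0 with only the 2 groups compared (2.31%), 21 without non-targeting replicates 1 and 4 (20.6%), and 0 to 31 with single libraries left out. With libraries left out the median ran from -0.0019 to 0.098 in set 2, from 0.10 to 0.19 in set 3 and from 0.090 to 0.14 in set 3 against set 2, and 0 members were called in set 2 and in set 3 against set 2 in every alternative.

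Gene by gene, these counts cover the named genes only, with HUWE1 among them and without PSMB3 and PSMC2. No called gene of these changed sign in any alternative run. Of 238 values of the 14 genes called in set 1, 35 lost the call. Of 114 values of the 6 called in set 3, 50 did. HUWE1, counted in both, did not lose its call. Values not called changed sign in 11 of 322 cases in set 1, 34 of 607 in set 2, 12 of 512 in set 3 and 7 of 593 in set 3 against set 2. Log2 fold changes that changed sign without non-targeting replicates 1 and 4 were those of ADRM1 (0.050) and PSMD11 (0.037) in set 3 and PSMC3 (0.012), PSMD11 (0.022) and PSME1 (-0.060) in set 2. After quantile normalization they were PSMB2 in set 1 (0.012), PSMB6 in set 2 (0.017), PSMD11 in set 3 (0.0041) and PSMB4 in set 3 against set 2 (-0.0010), and after median-of-ratios scaling PSMC6 in set 1 (0.0026). Without mitochondrially encoded genes they were PSMB2 in set 3 (-0.00013), PSMD11 in set 3 against set 2 (-0.0020), and PSMD8 (-0.014) and PSME1 (-0.012) in set 2. The cause was not tested.

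With single libraries left out, the ranges of named genes that crossed 0 were, in set 1, ADRM1 (-0.024 to 0.017), PSMA7 (-0.0039 to 0.023), PSMC6 (-0.049 to 0.017), PSMD10 (-0.023 to 0.029) and PSMD8 (-0.0022 to 0.058). In set 3 they were ADRM1 (-0.089 to 0.022), PSMB2 (-0.012 to 0.065), PSMD11 (-0.035 to 0.021) and PSME3 (-0.057 to 0.017). In set 2 they were POMP (-0.011 to 0.16), PSMA7 (-0.010 to 0.12), PSMB1 (-0.027 to 0.11), PSMB5 (-0.077 to 0.044), PSMB6 (-0.087 to 0.067), PSMB7 (-0.0080 to 0.23), PSMB9 (-0.073 to 0.022), PSMC3 (-0.057 to 0.0083), PSMC4 (-0.017 to 0.086), PSMD10 (-0.0029 to 0.12), PSMD11 (-0.050 to 0.0067), PSMD8 (-0.016 to 0.028), PSME1 (-0.089 to 0.053), PSME2 (-0.00053 to 0.11), PSME4 (-0.058 to 0.0055) and PSMG3 (-0.12 to 0.0052). In set 3 against set 2 they were PSMD11 (-0.022 to 0.035), PSMG1 (-0.0020 to 0.083) and PSMG4 (-0.053 to 0.020). The number of replicates limits the precision, and depth is unknown.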
